A study of Rattus norvegicus with 12 samples.

Results

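The genes described here are those of the cytosolic ribosomal proteins of the rat, measured in whole lung. They were taken by name: array features with an NM identifier whose current RefSeq symbol begins with Rpl or Rps and a digit, or is Rplp0, Rplp1, Rplp2 or Rpsa, without the ribosomal S6 kinases. This gave 65 features for 65 genes out of 26208 features in all, namely 33 proteins of the 60S subunit, 3 of its stalk, 27 of the 40S subunit and 2 genes (Rpl36al1 and Rpl37l1) that the current annotation names as copies. One further feature, Rpl17l5, had an XM identifier and was left out. Rpl7, Rpl7a, Rpl12, Rpl23a, Rpl26, Rpl27a, Rpl34, Rpl36a, Rpl37, Rpl37a, Rps9, Rps16 and Rps28 were not analysed here.

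The study compared lungs of Sprague-Dawley rat pups with intrauterine growth restriction (IUGR), brought about by a low protein diet before birth, with lungs of control pups at postnatal days 4, 10 and 21, the days over which alveoli form. Per the labels, 14 IUGR pups and 15 controls were used. RNA was pooled from 2 or 3 pups for each of 12 one-colour Cy3 arrays, which left 2 arrays for each of 6 groups: IUGR lungs and control lungs of day 4, of day 10 and of day 21. The litters behind each pool are not given, so p-values measure the spread between pools, which may share litters.

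Each cytosolic ribosome joins a small (40S) subunit, which reads the messenger RNA, to a large (60S) subunit, which forms the peptide bond, and each subunit holds many proteins made from single genes in near-equal amounts. Their messenger RNAs begin with a run of pyrimidines at the cap, through which the mTOR kinase controls their translation. Dividing and growing tissue, such as the lung after birth, makes ribosomes at a high rate, and several of these proteins have a second role away from the ribosome, for example in binding the ubiquitin ligase Mdm2.

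The start of the gene is shown for 9 members because the pyrimidine run at this position is the sequence feature the family is known for. RefSeq windows (assembly GRCr8) were at hand for 51 of the 65 members. The stretches below run from 40 bases before to 20 bases after the annotated start, 5′ to 3′ on the strand of the gene. Capitals mark an unbroken run of C and T that opens with C exactly at the annotated start. The first 4 belong to genes whose level fell between days in IUGR lungs, the next to Rps7, which rose, and the last 4 to genes with no such run at that base, of which Rpl13a, Rplp2 and Rpl36 fell and Rpl5 did not pass the test.
Rplp1: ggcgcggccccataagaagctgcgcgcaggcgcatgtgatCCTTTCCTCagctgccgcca
Rps15: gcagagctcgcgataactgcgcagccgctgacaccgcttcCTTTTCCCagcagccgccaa
Rps27: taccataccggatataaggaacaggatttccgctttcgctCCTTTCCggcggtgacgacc
Rpl28: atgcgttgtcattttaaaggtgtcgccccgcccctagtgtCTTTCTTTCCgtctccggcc
Rps7: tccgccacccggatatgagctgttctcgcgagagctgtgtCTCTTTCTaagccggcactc
Rpl13a: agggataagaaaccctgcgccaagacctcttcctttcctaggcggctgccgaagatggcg
Rplp2: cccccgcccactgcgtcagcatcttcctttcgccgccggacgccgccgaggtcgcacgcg
Rpl36: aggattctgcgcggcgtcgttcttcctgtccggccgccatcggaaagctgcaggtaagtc
Rpl5: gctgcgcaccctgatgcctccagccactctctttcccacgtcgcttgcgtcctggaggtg
In GRCr8 these lie at chr8:71290853-71290912 (Rplp1, minus strand), chr7:10068096-10068155 (Rps15, minus), chr2:177964587-177964646 (Rps27, minus), chr1:78083513-78083572 (Rpl28, minus) and chr6:50999426-50999485 (Rps7, minus). The last 4 lie at chr1:104748894-104748953 (Rpl13a, minus), chr1:205975881-205975940 (Rplp2, plus), chr9:1533740-1533799 (Rpl36, plus) and chr14:1995206-1995265 (Rpl5, minus).

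A C at the annotated start followed by 4 bases that are each C or T was found in 21 of the 51 member windows (41.2%), against 2.6% of the windows of 24206 genes. A looser search, for a C followed by 7 bases each C or T that begins within 20 bases of the start, matched 37 members (72.5%) and 13.8% of all windows. Rpl13a, Rplp2 and Rpl5 matched this looser search, since their runs begin before the annotated start. Over the whole window of 250 bases before to 50 after the start, searched on both strands, the letters TCTCG followed directly by their reverse complement stood in 6 members (11.8%) and 0.463% of all windows. The 6 were Rpl4, Rpl10a, Rpl17, Rps6, Rps7 and Rps19. CCGGAAG stood in 31.4% of members, 9.49% of all windows and 11.8% of those of 7437 genes with an NM feature on the array, and GGGCGG in 54.9%, 35.9% and 45.9%. In members and all windows, AAGATGGC stood in 9.8% and 3.58%, TATAAA in 7.8% and 14.3%, and CCAAT in 27.5% and 37.8%, and the shares over the NM genes were 3.68%, 14.1% and 39.5%. These are matches of letters in a window whose start is the annotated one, and say nothing of binding.

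On the arrays of days 4 and 10 the median intensity was 411 to 418, and each array correlated with the mean of these 8 arrays at 0.986 to 0.996. The 3 usable arrays of day 21 lay on another scale (median 270.1 to 278) and were tested apart, on the 10097 NM features. The other day 21 array, control replicate 2, correlated with that mean at 0.0197 over all features, against 0.43 to 0.434 for those 3 arrays. On NM features it had 0.09, against 0.946 to 0.948. Its values could therefore not be assigned to genes, and it was left out. The lung label was borne out by bright epithelial genes, with surfactant protein C (Sftpc) at a log2 intensity of 15.31 to 15.62 on the 11 arrays used. Not all of the 10 measured epithelial genes (12 listed) were bright. Aqp5 had 8.97 to 9.37 on the arrays of days 4 and 10, where the median NM feature had 8.82 to 8.98. Genes of heart muscle (6 measured of 10 listed) and of brown fat (6 of 8) were highest at these ages on IUGR day 4 replicate 2, with a mean log2 of 12.31 and 10.71, and on IUGR day 10 replicate 2, with 11.12 and 10.99, and these 2 arrays are called rich in cardiac and fat transcripts below. The other 6 arrays of days 4 and 10 lay at 8.97 to 10.83 for heart and 8.69 to 9.88 for brown fat. Values below are log2 intensities or their differences, each difference with its standard error from limma, and adjusted p-values are Benjamini-Hochberg values over all features tested.

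The clearest movement of the ribosomal protein genes was with age. Between days 4 and 10 the median log2 difference over the 65 genes in IUGR lungs was -0.30, which is -18.8%, and 64 of the 65 were lower at day 10. In control lungs the median was -0.16 (-10.2%), with 61 of 65 lower. Over all 26208 features the medians were -0.03 in IUGR and -0.01 in control lungs, and over 945 other NM features with the highest mean intensity both were -0.04. Lower at day 10 were 55.2% of all features in IUGR and 52.94% in control lungs. Of those 945 features 61.27% and 62.43% were lower. In IUGR lungs 27 members passed an adjusted p of 0.05 as lower, where 6.16% of all features did, and 1 member, Rps7, passed as higher, where 6.83% did. In control lungs 2 members, Rps2 and Rps27, passed as lower (background 1.99%) and none as higher (background 2.29%) in limma, and 22 were lower and 1 higher at an unadjusted p of 0.05 (backgrounds 11.0% and 10.1%). Since the tissue is bulk lung, fewer cells rich in these messengers and less of them per cell cannot be told apart.

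The separation shows array by array. As deviation from each gene's mean over the 8 arrays, the median over the 65 members was -0.14 and -0.12 on the IUGR day 10 arrays and -0.08 and -0.11 on the control day 10 arrays. It was 0.12 and 0.17 on the IUGR day 4 arrays and 0.05 and 0.08 on the control day 4 arrays. Every day 10 array therefore lay below every day 4 array in either diet, and the IUGR arrays lay outside the control arrays at both ages. At day 10 the diets were close, at -0.12 against -0.11 for the nearest arrays. The medians over all NM features had the same order by day, with smaller values. They were -0.0405 and -0.0248 on the IUGR and -0.0157 and -0.0203 on the control arrays of day 10. At day 4 they were 0.0206 and 0.0271 on the IUGR and 0.0211 and 0.0082 on the control arrays. Both IUGR arrays of day 10 were below both of day 4 for 59 of 65 members, where 30.4% of all features were, and above them for 1, Rps7, where 23.9% were. In control lungs both were below for 54 members, where 30.9% of all features were, and above for Rps7 and Rpl5, where 27.0% were.

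**Figure D1:**
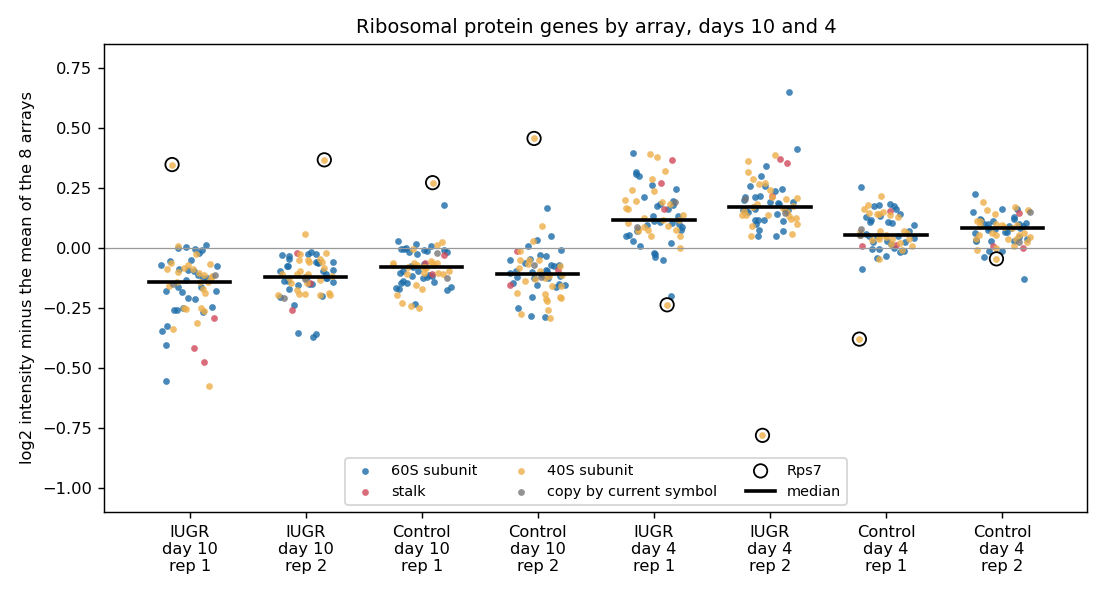
Each point is 1 of the 65 ribosomal protein genes on 1 array of day 10 or day 4, as log2 intensity minus that gene's mean over the 8 arrays (vertical axis). Black bars are medians over the genes, which run from -0.14 on IUGR day 10 replicate 1 to 0.17 on IUGR day 4 replicate 2, and the circled gene, Rps7, runs the other way.

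The stalk is the arm of the 60S subunit that recruits the elongation factors, built of Rplp0 as anchor and of the acidic proteins Rplp1 and Rplp2. Rplp1 (NM_001007604) had log2 intensities of 12.64 and 12.80 in IUGR lungs at day 10, against 13.33 and 13.43 at day 4, and of 12.95 and 12.90 in control lungs at day 10, against 13.21 and 13.20 at day 4. The 4 groups did not overlap, and the IUGR arrays held both the highest and the lowest values. It fell by 0.66 ± 0.09 on the log2 scale in IUGR lungs (adjusted p = 0.0063, limma), a level of 0.634 times that of day 4, and its difference in control lungs was -0.28 ± 0.09 (adjusted p = 0.12). Rplp2 had 13.79 and 13.93 in IUGR lungs at day 10, against 14.45 and 14.30 at day 4, and 14.02 and 13.99 in control lungs at day 10, against 14.09 and 14.08 at day 4. It fell by 0.51 ± 0.09 in IUGR lungs (adjusted p = 0.014), beside -0.08 ± 0.09 in control lungs (adjusted p = 0.69). Rplp0, often used as a reference gene in PCR work, had 11.92 and 12.37 in IUGR lungs at day 10, against 12.56 and 12.75 at day 4. In control lungs it had 12.36 and 12.38 at day 10, against 12.41 and 12.40 at day 4. Its 2 IUGR arrays of day 10 lay far apart, and its difference of -0.51 ± 0.14 missed the threshold (adjusted p = 0.058).

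Among the other 60S proteins 13 of 33 passed as lower at day 10 in IUGR lungs and none in control lungs. Over all features 6.16% and 1.99% did so. All 33 had negative values in IUGR lungs (median -0.30). Rpl13a (NM_173340), a surface protein of the subunit that in human myeloid cells also leaves the ribosome to silence inflammatory messengers, had 12.34 and 12.53 in IUGR lungs at day 10, against 13.08 and 13.55 at day 4. In control lungs it had 12.80 and 12.61 at day 10, against 13.15 and 13.12 at day 4. It fell by 0.88 ± 0.15 in IUGR lungs (adjusted p = 0.014), the largest negative difference among the members, and had -0.43 ± 0.15 in control lungs (adjusted p = 0.16). Without IUGR day 10 replicate 1 its value was -0.79 (adjusted p = 0.092).

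Rpl28, a eukaryote-specific 60S protein, had 13.21 and 13.22 in IUGR lungs at day 10, against 13.77 and 13.71 at day 4, and 13.46 and 13.39 in control lungs at day 10, against 13.51 and 13.43 at day 4. The day 4 IUGR arrays stood well above the other 6 and the day 10 IUGR arrays below them. It fell by 0.53 ± 0.08 in IUGR lungs (adjusted p = 0.0092) and had -0.05 ± 0.08 in control lungs (adjusted p = 0.82). Rpl8, which lies by the peptidyl transferase centre, fell by 0.53 ± 0.11 in IUGR lungs (adjusted p = 0.022) and Rpl36 by 0.52 ± 0.10 (adjusted p = 0.018). Rpl19, which reaches over to the 40S subunit, fell by 0.46 ± 0.08 (adjusted p = 0.016). Among the other 60S proteins that fell were Rpl18, Rpl10a, Rpl10, Rpl27, Rpl14, Rpl6 and Rpl15. Rpl10 joins the 60S subunit last and makes it able to pair with the 40S, and it fell by 0.35 ± 0.09 (adjusted p = 0.038).

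Rpl5 and Rpl11 enter the subunit together with the 5S ribosomal RNA and, when free, bind Mdm2. Rpl5 had 14.91 and 14.89 in IUGR lungs at day 10, against 14.89 and 15.08 at day 4, and 14.91 and 14.97 in control lungs at day 10, against 14.90 and 14.79 at day 4. The IUGR arrays of both days overlapped, and neither difference passed (-0.09 ± 0.09 in IUGR and 0.09 ± 0.09 in control lungs, adjusted p = 0.59 and 0.65). Rpl11 had differences of -0.18 ± 0.08 in IUGR and -0.03 ± 0.08 in control lungs (adjusted p = 0.20 and 0.88). Rpl3, near the peptidyl transferase centre, had -0.30 ± 0.08 in IUGR lungs and just missed the threshold (adjusted p = 0.054). Rpl22, which in the mouse is needed for T cell development, had -0.15 ± 0.08 (adjusted p = 0.25). The smallest differences in IUGR lungs belonged to Rpl32 (-0.05), Rpl4 (-0.06) and Rpl23 (-0.07).

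**Figure D2:**
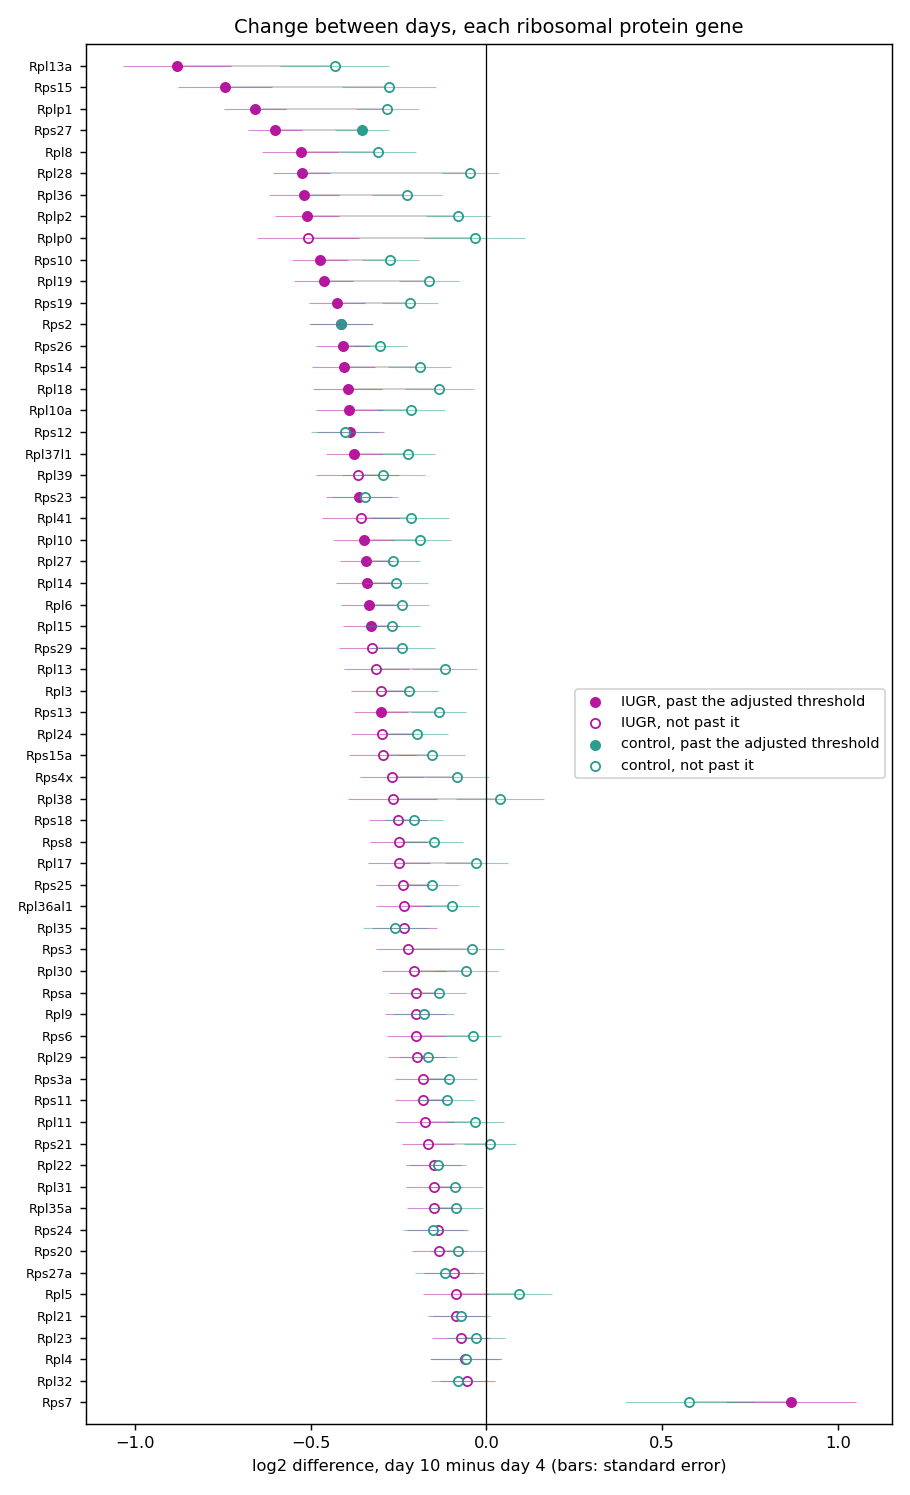
Log2 difference between days, day 10 minus day 4, of 63 of the 65 genes (horizontal axis, bars are standard errors), in IUGR lungs (purple) and control lungs (green). Filled points passed an adjusted p of 0.05, namely 26 in IUGR and 2 in control lungs. The genes not drawn, whose single values are not reported here, both passed as lower in IUGR lungs, and for most genes the purple point lies left of the green one.

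Of the 27 proteins of the 40S subunit 11 passed as lower and 1 as higher in IUGR lungs (median -0.27), and 2 passed as lower in control lungs (median -0.15). Over all features 6.16% passed as lower and 6.83% as higher in IUGR lungs, and 1.99% as lower in control lungs. Rps27 (NM_053597), a zinc finger protein of the subunit, had 12.91 and 12.96 in IUGR lungs at day 10, against 13.55 and 13.53 at day 4, and 12.91 and 12.90 in control lungs at day 10, against 13.30 and 13.22 at day 4. The 4 arrays of day 10 were nearly level, and the diets differed at day 4. It fell by 0.60 ± 0.08 in IUGR lungs (adjusted p = 0.0056) and by 0.35 ± 0.08 in control lungs (adjusted p = 0.048). Rps15, which sits near the decoding site and serves in export of the subunit from the nucleus, had 12.44 and 12.87 in IUGR lungs at day 10, against 13.39 and 13.40 at day 4. In control lungs it had 12.91 and 12.82 at day 10, against 13.16 and 13.13 at day 4. It fell by 0.74 ± 0.13 in IUGR lungs (adjusted p = 0.014), with its 2 day 10 pools far apart, beside -0.28 ± 0.13 in control lungs (adjusted p = 0.29).

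Rps2, at the entry of the messenger channel, had nearly the same difference in both diets. It had 13.49 on both IUGR arrays of day 10, against 14.00 and 13.81 at day 4, and 13.44 and 13.47 in control lungs at day 10, against 13.90 and 13.84 at day 4. It fell by 0.41 ± 0.09 in each diet (adjusted p = 0.026 in IUGR and 0.046 in control lungs). Rps10, Rps14, Rps19, Rps12, Rps13, Rps23 and Rps26 also fell in IUGR lungs, by 0.30 (Rps13) to 0.47 (Rps10). RPS10, RPS19 and RPS26 are mutated in Diamond-Blackfan anaemia in humans, and RPS14 is lost in the human 5q- syndrome. Rps6, the substrate of the S6 kinases, had -0.20 ± 0.08 in IUGR and -0.04 ± 0.08 in control lungs (adjusted p = 0.15 and 0.85). Rps3, which lines the messenger entry channel and acts in DNA repair when free, had -0.22 ± 0.09 and -0.04 ± 0.09 (adjusted p = 0.15 and 0.86). Rpsa, which doubles as a laminin receptor, had -0.20 ± 0.08 and -0.14 ± 0.08 (adjusted p = 0.12 and 0.37). Rps27a, made as a fusion with ubiquitin, had -0.09 ± 0.08 and -0.12 ± 0.08 (adjusted p = 0.51 and 0.49).

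Rps7 (NM_031570), a 40S protein that also binds Mdm2, was the one member that passed as higher at day 10. It had 12.75 and 12.77 in IUGR lungs at day 10, against 12.16 and 11.62 at day 4, and 12.67 and 12.86 in control lungs at day 10, against 12.02 and 12.36 at day 4. All 4 arrays of day 10 lay above all 4 of day 4. It rose by 0.87 ± 0.18 in IUGR lungs (adjusted p = 0.025), to 1.82 times the day 4 level, and its difference in control lungs was 0.58 ± 0.18 (adjusted p = 0.12). On the day 21 arrays, on their own scale, it had 13.10 and 13.64 in IUGR lungs and 13.46 in control lungs. The call in IUGR lungs was lost without IUGR day 4 replicate 2, where its value was 0.59 (adjusted p = 0.0501), and without either IUGR array of day 10 (0.88 with an adjusted p of 0.12 without replicate 1, 0.86 with 0.085 without replicate 2). Without the 2 arrays rich in cardiac and fat transcripts its value was 0.58 (adjusted p = 0.090). Across the 8 arrays it correlated with the mean of the other members at -0.93, where the median member had 0.90 and 61 of 65 had more than 0.5. The others below 0.5 were Rpl5 (0.20), Rpl38 (0.31) and Rpl4 (0.40).

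**Figure D3:**
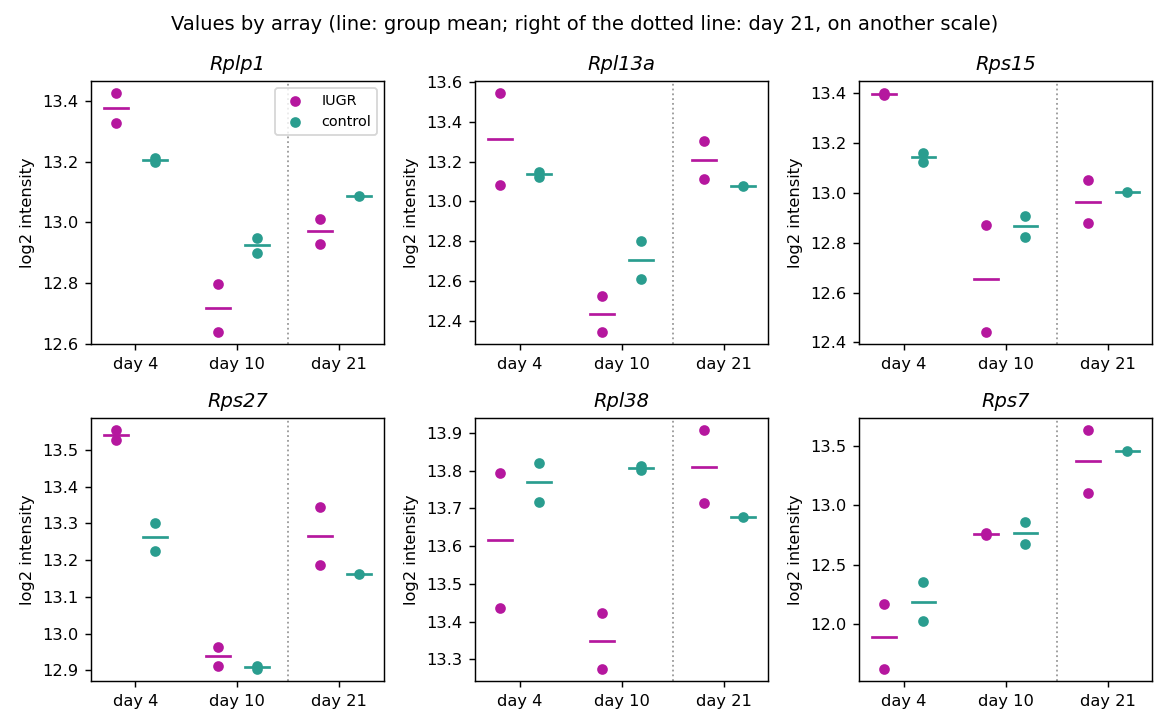
Log2 intensity of 6 genes on each array (points) with group means (lines), IUGR left of control at days 4, 10 and 21. Rplp1, Rpl13a, Rps15 and Rps27 were lower at day 10 than at day 4 in both diets, Rpl38 was lower in IUGR than control lungs at day 10, and Rps7 was higher at day 10. Day 21 lies on another scale, and its level is not comparable with the other days.

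Of the 2 genes named as copies 1 passed. Rpl37l1, which carries Rpl37 as an older name, fell by 0.38 ± 0.08 in IUGR lungs (adjusted p = 0.024), and Rpl36al1, which carries Rpl36al, had -0.24 ± 0.08 (adjusted p = 0.086). Ribosomal protein genes have many processed copies in the genome, and probes of the array may not tell a gene from such a copy, which was not tested.

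How many members passed in IUGR lungs depended on the arrays. Of the 28 calls, those of Rplp1 and Rps27 alone were left without IUGR day 10 replicate 1. Without the other IUGR pool of day 10, or without IUGR day 4 replicate 2, fewer members passed, not all of them among the 28. Without IUGR day 4 replicate 1 some of the 28 calls were lost, and other members passed instead. Without 1 control array, which enters here only through the estimate of spread, 17 (either day 4 array) or 13 (either day 10 array) stood. In each of these fits 64 of 65 members were lower at day 10, except without IUGR day 4 replicate 2, where 62 were. How many of all features passed in these fits was not set beside the counts of calls. Without the 2 arrays rich in cardiac and fat transcripts 17 members passed, 15 of them among the 28, the median was -0.27 and 60 of 65 were lower. In control lungs the 2 calls became 0 without any 1 control array or without either IUGR array of day 10, and 8 without either IUGR array of day 4. Genes of the cell cycle (8 measured of 15 listed) moved with age as well. Their mean log2 was 10.88 and 10.92 in IUGR lungs at day 10, against 11.28 and 11.18 at day 4, and 10.66 and 10.74 in control lungs at day 10, against 11.19 and 11.13 at day 4. Of these 8 genes 1 passed as lower in IUGR lungs and 4 in control lungs, where 6.16% and 1.99% of all features did. The 10 epithelial genes had a mean of 12.47 and 12.40 in IUGR lungs at day 10, against 12.80 on both arrays of day 4, and of 12.63 and 12.56 in control lungs at day 10, against 12.73 and 12.82 at day 4. Red cell genes had 10.46 and 10.40 in IUGR lungs at day 10, against 10.99 and 10.35 at day 4, and 10.27 and 10.41 in control lungs at day 10, against 11.19 and 11.04 at day 4. Heart genes were lower at day 10 for all 6 measured in both diets, with a median difference of -0.79 in IUGR lungs, where none passed, and of -1.71 in control lungs, where Tnnt2 passed (-2.42 ± 0.46, adjusted p = 0.034, limma). Lymphocyte genes were lower for 4 of 4 in IUGR lungs (median -0.35), where Cd3d passed (-0.67 ± 0.13, adjusted p = 0.020), and for 3 of 4 in control lungs (median -0.10), where Cd79b passed (-0.71 ± 0.15, adjusted p = 0.044). Of the 6 brown fat genes 1 was lower in IUGR lungs (median 0.35) and 3 in control lungs (median -0.02), and none passed. The part of these 6 lists in the ribosomal result was not tested.

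The question of the study is what IUGR does to the lung, and at day 4 no ribosomal protein gene passed the adjusted threshold in limma. IUGR minus control had a median of 0.08 over the members (5.66%), with 60 of 65 above 0, beside medians of 0.003 over all features and 0.01 over the other bright NM features. Of all features 49.1% lay below 0. Past the adjusted threshold were 0.0% of all features. At an unadjusted p of 0.05, 6 members were higher and 0 lower, where 4.12% and 5.47% of all features were. Both IUGR arrays lay above both control arrays for 38 of 65 members and below them for 1, where 18.3% and 19.1% of all features did so.

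The 5 members with the highest values at day 4 were Rpl36, Rplp2, Rps27, Rpl28 and Rpl13, from 0.26 to 0.32. Rpl36 had 13.16 and 13.06 in IUGR lungs against 12.73 and 12.85 in control lungs, a difference of 0.32 ± 0.10 (adjusted p = 0.40). Rpl13 had 13.10 and 12.94 in IUGR lungs against 12.70 and 12.83 in control lungs, a difference of 0.26 ± 0.09 (adjusted p = 0.45). In both genes the groups did not overlap, but the difference did not pass after adjustment. The 3 stalk genes had 0.29 (Rplp2), 0.25 (Rplp0) and 0.17 (Rplp1), all above both other groups' medians of 0.06 for the 60S and 0.08 for the 40S proteins. The lowest values were those of Rps7 (-0.30 ± 0.18), Rpl38 (-0.15 ± 0.13), Rpl32 (-0.07), Rps14 (-0.02) and Rpl29 (-0.02). Rpl38 turned to 0.025 without IUGR day 4 replicate 1, and Rps14 and Rpl29 also turned sign when single arrays were left out. Without IUGR day 4 replicate 2, 1 of the 2 arrays rich in cardiac and fat transcripts, the median was 0.05 and 46 of 65 members were above 0. Red cell genes (5 measured of 10 listed) had a mean log2 of 10.99 and 10.35 in IUGR lungs, against 11.19 and 11.04 in control lungs, and lymphocyte genes (4 of 10) had 9.39 and 9.36, against 9.29 and 9.08. Their part in the values of day 4 was not tested.

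At day 10 the median lay on the other side of 0, as did that over all NM features. IUGR minus control had a median of -0.02 (-1.13%) over the members, with 42 of 65 below 0. The median over all NM features was also -0.02, with 55.03% below 0, and over all features it was -0.01. No member passed in limma (0.0% of all features did), 5 were lower and 0 higher at an unadjusted p of 0.05, where 4.11% and 3.88% of all features were. Both IUGR arrays lay below both control arrays for 21 of 65 members and above them for 6, where 23.6% and 19.9% of all features did so. For 12 members the IUGR arrays lay above both control arrays at day 4 and below both at day 10, among them Rplp1, Rplp2, Rpl28, Rps10, Rps19 and Rps3, where 3.55% of all features did so. Without IUGR day 10 replicate 2 the median was -0.04, and without control replicate 1 or 2 it was -0.04 and -0.05.

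Rpl38 (NM_001077592), which in the mouse is needed for the translation of Hox messengers in the axial skeleton, had the lowest value at day 10. It had 13.42 and 13.27 in IUGR lungs against 13.81 and 13.80 in control lungs, a difference of -0.46 ± 0.13 (adjusted p = 0.45). Its 2 IUGR pools were also apart at day 4, at 13.44 and 13.79, against 13.82 and 13.72 in control lungs. Rpl19 had 13.79 and 13.68 in IUGR lungs against 14.05 and 14.01 in control lungs at day 10 (-0.29 ± 0.08, adjusted p = 0.47). Rpl13a had -0.27, Rps14 -0.24 and Rplp0 -0.23 at this age, and the 3 stalk genes had a median of -0.21, beside -0.03 for the 60S and 0.00 for the 40S proteins. At the upper end stood Rps24 (0.12), Rps23 (0.11), Rps26 (0.09), Rpl39 (0.08) and Rps12 (0.08).

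**Figure D4:**
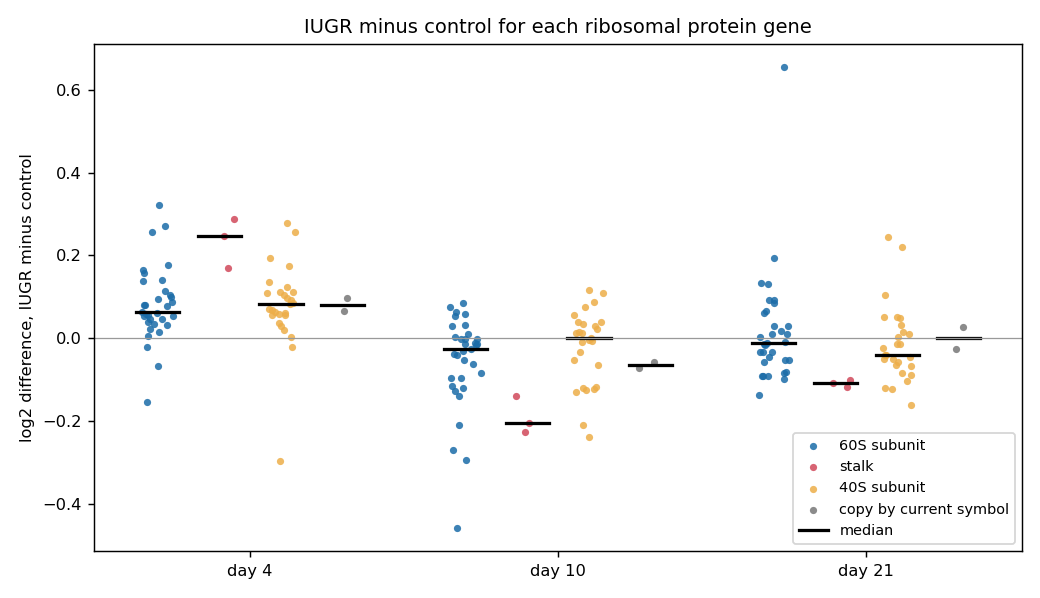
IUGR minus control as log2 difference (vertical axis) for each ribosomal protein gene at days 4, 10 and 21, coloured by subunit, with the median of each subunit as a black bar. At day 4 most points lie above 0 (60 of 65), and at day 10 most lie below (42 of 65, beside 55.03% of all NM features). None passed an adjusted p of 0.05 at any age. The 3 stalk genes lie above 0 at day 4 and below it at days 10 and 21.

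Whether the effect of IUGR differed between the ages was tested as the difference of both effects, which equals the day change in IUGR lungs minus that in control lungs. Its median over the members was -0.11 (-7.14%), with 58 of 65 below 0, beside -0.01 over all features and 0.00 over the other bright NM features. Of all features 52.11% lay below 0. No member passed in limma (0.0% of all features did), while 5 were lower and 0 higher at an unadjusted p of 0.05, where 3.53% and 3.84% of all features were. The 5 were Rpl28 (-0.48 ± 0.11, adjusted p = 0.43), Rps15 (-0.47 ± 0.19, adjusted p = 0.65), Rplp2 (-0.43 ± 0.13, adjusted p = 0.56), Rplp1 (-0.38 ± 0.13, adjusted p = 0.59) and Rpl19 (-0.30 ± 0.12, adjusted p = 0.65). Rplp0 had -0.47 ± 0.20 and Rpl13a -0.45 ± 0.22. The stalk genes had a median of -0.43, the 60S proteins -0.10 and the 40S proteins -0.09. For no single gene did the difference exceed the spread between pools after adjustment. At the other end were Rps7 (0.29 ± 0.26) and then Rps27a, Rpl35, Rpl32 and Rps12, all between 0.02 and 0.03.

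Averaged over days 4 and 10 the diets had a median difference of 0.03 over the members, with 43 of 65 above 0, and no member passed in limma (0.0% of all features did). At an unadjusted p of 0.05 the count was 4 higher (Rpl36, Rpl13, Rps27 and Rps26) and 2 lower (Rpl38 and Rpl19), where 4.85% and 5.41% of all features passed. Rpl38 had the largest of these at -0.31 ± 0.09 (adjusted p = 0.40).

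At day 21, with 2 IUGR arrays and 1 control array, the median difference was -0.02 (-1.58%) and 26 of 65 members were above 0, beside 0.002 over the 10097 NM features. No member passed as higher or lower in limma, where 0.0% and 0.0099% of the features did. At an unadjusted p of 0.05, 1 member was higher and none lower (backgrounds 2.55% and 2.91%). That gene was Rpl39, a short protein of the peptide exit tunnel, with 13.16 and 13.31 in IUGR lungs against 12.58 in the control lung pool, a difference of 0.66 ± 0.23 (adjusted p = 0.86). A gene's own spread comes here from the 2 IUGR arrays alone, so the single control pool is assumed to vary like them. The standard error draws this spread towards one shared by the NM features, with 1 residual and 3.80 prior degrees of freedom. Both IUGR arrays lay above the control array for 17 members and below it for 21, where 32.1% and 31.3% of features did so. At this age the mean log2 over the heart genes was 11.97 for IUGR replicate 2 and 8.93 for IUGR replicate 1, against 9.23 on the control array. The sarcomere genes among them were high on the control array too: Tnnt2 had 14.60 and 12.08 on IUGR replicates 2 and 1, against 14.14, Tnni3 had 11.91 and 9.02, against 11.83, and Myh6 had 12.71 and 8.79, against 11.89. The natriuretic peptide genes Nppa (13.51 and 9.59, against 5.67) and Nppb (10.21 and 6.34, against 3.89) were lowest there. Brown fat genes had 7.67 and 8.23 on the IUGR arrays, against 10.31 on the control array. The part of both lists in the values of day 21 was not tested.

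Other genes of the translation machinery were read in the same fit for the change between days. Among ribosomal proteins with other names, Rack1, the signalling scaffold of the 40S subunit, fell by 0.43 ± 0.09 in IUGR lungs (adjusted p = 0.022) and Fau, the precursor of Rps30, by 0.37 ± 0.08 (adjusted p = 0.028). Of 18 measured initiation factors (33 listed) 3 passed as lower in IUGR lungs, Eif3g, Eif4b and the helicase Eif4a1 (-0.33 to -0.36), and 0 in control lungs. Of 9 elongation and release factors (12 listed) 2 passed as lower in IUGR lungs, the nascent chain factor Btf3 (-0.32) and the release factor Etf1 (-0.30), and 0 in control lungs. No initiation, elongation or release factor of these lists passed as higher in either diet. Over all features 6.16% passed as lower in IUGR and 1.99% in control lungs, and 6.83% and 2.29% as higher.

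Ribosome assembly was also represented. Of 34 measured assembly genes (54 listed) 7 passed as lower in IUGR lungs: the methyltransferase fibrillarin (Fbl, -0.58 ± 0.15), the helicase Ddx21 (-0.46 ± 0.08), the pseudouridine synthase Dkc1 (-0.41 ± 0.09), Ebna1bp2, Gnl3, Nop58 and Polr1a, the largest subunit of RNA polymerase I (-0.36 ± 0.08). In control lungs 2 passed, Ltv1 (-0.54 ± 0.09) and Nop16 (-0.39 ± 0.09), and none passed as higher in either diet. The list medians were -0.25 in IUGR and -0.18 in control lungs. Of 16 genes of mTOR and S6 kinase signalling (22 listed) 4 passed as lower in IUGR lungs, the kinases Rps6kb2 and Akt1, the mTOR partner Mlst8 and the transcription factor Myc (-0.44 to -0.48), and 0 in control lungs, where Myc had -0.41 ± 0.10 (adjusted p = 0.058). None of these genes passed in any comparison of IUGR with control lungs. Of all features, 6.16% passed as lower between days in IUGR lungs and 1.99% in control lungs.

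**Figure D5:**
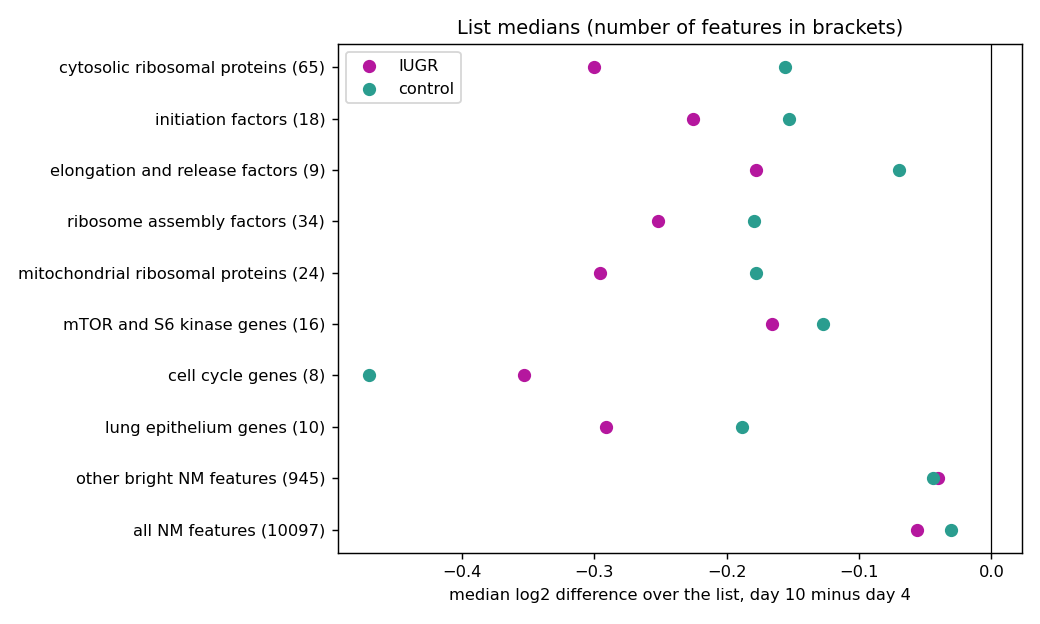
Median log2 difference between days, day 10 minus day 4, over each gene list (horizontal axis) in IUGR lungs (purple) and control lungs (green), with the number of features measured in brackets. The ribosomal protein genes had -0.30 and -0.16, other bright NM features -0.04 in both, and all NM features -0.06 and -0.03.

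For the members with a pyrimidine run exactly at the annotated start the median day change in IUGR lungs was -0.35 (21 genes, 10 passed as lower). For those without it was -0.30 (30 genes, 11 passed as lower), where 6.16% of all features passed as lower. In control lungs the medians were -0.19 and -0.14. Rps7, which rose, and Rplp1, Rps15 and Rps27, which fell, all have such a run in the sequences shown above, and Rpl13a and Rpl36 have none at that base.

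The non-member NM genes whose values over the 8 arrays followed the mean deviation of the members most closely were Tbca, Nicn1, Pmpcb, Hyal2, Lgals3, Mgst1, Kcnk1, Sf3a3, Fam110b and Timm8a1, with Pearson correlations of 0.979 to 0.995. These 10 were picked as the highest of all NM features on the same 8 arrays, so the values are a description. Tbca, a tubulin folding cofactor, had 13.43 and 13.48 in IUGR lungs at day 10, against 13.75 and 13.77 at day 4, and 13.51 on both control arrays of day 10, against 13.69 and 13.67 at day 4. Among the members the spread between the 2 pools of a group was small, with a median standard deviation of 0.059, against 0.103 over all NM features. It was largest for Rps7 (0.24), Rpl13a (0.19), Rplp0 (0.17) and Rps15 (0.16), so some of the largest differences rest on the genes whose pools varied most.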

How the data were processed

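Whole rat lung RNA was measured on one-colour arrays. The authors deposited linear intensity values, 1 per feature and array; per the submitters' processing notes RMA was used, with no version given, and probe design and settings are not given in the sources used here. Features were named by matching accessions without versions to the RefSeq table of GRCr8 (9731 of 26208 matched 1 symbol). Log2 of these values was taken, and nothing more was normalised. The 8 arrays of the younger ages entered 1 limma model with a mean for each group (limma 3.58.1, R 4.3.3, 4 residual degrees of freedom, prior 3.79). Day 21 was fitted apart on NM features (1 residual degree of freedom). P-values were adjusted by Benjamini-Hochberg over all features, with a threshold of 0.05. The number of arrays limits the precision. The fits were tested on simulated data. Columns of values left unused numbered 0.

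The members and lists were chosen with earlier results of these data known. Genes were named by rule: the 5 highest and 5 lowest members per comparison, members past the threshold, a fixed panel, the copies, the 2 smallest p-values each way of each other list, and the 10 most similar genes. Genes of the other lists that passed beyond the rule, and members that just missed the threshold, were named after their values were seen. The arrays were not paired by replicate number, since the numbers are not stated to mark shared litters or batches. Correlations of same-numbered deviations ran from -0.23 to 0.19, which with 2 arrays per group cannot settle whether they do. Alternatives were median centring, quantile normalisation, a filter on the dimmest 30%, subunit proteins only, a replicate block, each array left out, and both arrays rich in cardiac and fat transcripts left out. Single values of some genes are not reported here.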

Additional observations from a re-analysis of the deposited data

How the results depend on the processing

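Of the medians and counts over the members, 149 alternative values stayed close to the main value and 29 moved. Part of this was fixed in advance. A median cannot move when the array left out is not in its comparison. Nor can it move under the filter on dim features or the replicate block, which leave the differences of these members as they are. The tally is therefore no measure of how firm the results are. A median was said to move if its shift reached the spread of the member median between replicate arrays (0.017 to 0.043 by comparison). A count was said to move if it changed by more than a set ratio, or to or from 0. A move need not turn the sign. Quantile normalisation left 0 calls for the day change in control lungs and median centring 1, against 2. The replicate block (replicate number as a term in the fit) also left 0 there and 20 of 28 in IUGR lungs, and changed no other count of calls. Without both arrays rich in cardiac and fat transcripts, control lungs had 10 calls, IUGR lungs 17 with a median of -0.27, and IUGR minus control at day 10 a median of -0.044. Leaving out 1 array at a time gave medians of 0.053 to 0.10 for IUGR minus control at day 4, -0.048 to -0.012 at day 10, 0.011 to 0.035 for the average, -0.14 to -0.085 for the difference between ages, -0.18 to -0.15 for the day change in control and -0.32 to -0.26 in IUGR lungs, and -0.047 to 0.0064 at day 21, where no test was left. Calls ran from 0 to 8 in control and from 2 to 28 in IUGR lungs for the day change, and were 0 for IUGR against control under each of these alternatives. The cause of these moves was not tested, and the fits that left arrays out also held fewer arrays.

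Among named genes, 30 values turned sign, and none of these genes had passed in the comparison where it turned. Without both arrays rich in cardiac and fat transcripts these were Rpl29 0.0099 for IUGR minus control at day 4, Rps12 -0.027 for IUGR minus control at day 10, Rps12 -0.044 and Rpl35 -0.11 for the difference between ages, Rpl23 0.016 and Rpl4 0.050 and Rpl5 0.015 and Rps27a 0.011 for the day change in IUGR lungs. Leaving out 1 array at a time gave for IUGR minus control at day 4 Rpl38 -0.33 to 0.025, Rps14 -0.069 to 0.024, Rpl29 -0.071 to 0.030. It gave for IUGR minus control at day 10 Rps12 -0.027 to 0.18. It gave for the difference between ages Rps12 -0.087 to 0.12, Rpl32 -0.024 to 0.076, Rps27a -0.043 to 0.096, Rpl35 -0.046 to 0.097. It gave for the day change in control lungs Rps21 -0.0019 to 0.021, Rpl38 -0.013 to 0.088, Rps3 -0.13 to 0.052, Rpl17 -0.068 to 0.011. It gave for the day change in IUGR lungs Rpl4 -0.16 to 0.036, Rpl5 -0.18 to 0.0078.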

Other observations

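Ribosomal proteins of the mitochondrion, taken as the 24 NM features whose symbol begins with Mrpl or Mrps, were read after their values had been seen. Their median day change was -0.30 in IUGR and -0.18 in control lungs, and 8 passed as lower in IUGR lungs and 0 in control lungs. Of all features 6.16% and 1.99% passed as lower. Mrpl34 had -0.74 ± 0.11 and Mrpl23 -0.71 ± 0.10 in IUGR lungs (adjusted p = 0.0085 and 0.0080, limma). For IUGR minus control their median was 0.07 at day 4 and -0.04 at day 10, and none passed.

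Of 10 measured lung epithelial genes 4 passed as lower in IUGR lungs and 1 in control lungs between days 4 and 10, and none as higher. The shares of all features that passed as lower were 6.16% in IUGR and 1.99% in control lungs. Surfactant protein B (Sftpb) fell by 0.81 ± 0.10 in IUGR lungs (adjusted p = 0.0043), beside -0.43 ± 0.10 in control lungs (adjusted p = 0.052). Napsa, the protease that processes it, fell by 0.78 ± 0.08 in IUGR and 0.49 ± 0.08 in control lungs (adjusted p = 0.0033 and 0.024). Lamp3 and Cldn18 fell in IUGR lungs as well, by 0.48 and 0.43 (adjusted p = 0.015 and 0.034). Of the genes of flat alveolar cells, Aqp5 had 0.003 ± 0.08 in IUGR and 0.33 ± 0.08 in control lungs (adjusted p = 0.99 and 0.065), and Ager had -0.24 ± 0.09 and 0.26 ± 0.09 (adjusted p = 0.13 and 0.15).

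Across the 65 ribosomal protein genes the day change in IUGR lungs ran with the mean log2 intensity of the feature, with a Spearman correlation of 0.62 in IUGR and 0.35 in control lungs. The features share 8 arrays, so this is a description. The median day change was -0.20 over the 33 brighter features and -0.38 over the 32 dimmer ones in IUGR lungs, and -0.11 and -0.23 in control lungs. Whether bright features are compressed by the scale was not tested.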
